A study of Mus musculus with 24 samples.

Results

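Control organoids, grown from newborn cochlear epithelium, were compared with inner ear tissue of 3-month-old mice, gene by gene, to ask which inner ear cell types the organoids kept and which they lacked. The genes were those whose identifier had a row in both deposited count tables: 17257 genes, all protein coding, of the 18440 in the table of inner ear tissue, the 25190 in the organoid table and the 26373 in either. The comparison used 7 of the 24 libraries of the series, which studied ageing, the cytokine TNF and the RNA-binding protein RBM25 by bulk RNA sequencing. The 4 ear libraries came from untreated wild-type male C57BL6/J mice aged 3 months. They held the whole soft content of the inner ear after its bone had been taken away. Their labels number them 1 to 4, and the numbers alone do not show that each library was 1 mouse. Their titles speak of the cochlea and their tissue label of the inner ear. The 3 organoid libraries came from wild-type cochlear epithelium of pups at postnatal day 1 to 2, and the sources used here give neither the strain nor the sex of these pups. The dissociated cells were expanded for 8 to 10 days in 5% Matrigel with EGF, bFGF and IGF (50 ng/mL each) and 3.5 μM CHIR99021, which inhibits GSK3 and so activates Wnt signalling. They were then kept for 7 to 8 days in 3 μM CHIR99021 and 5 μM LY411575, a gamma-secretase inhibitor that blocks Notch signalling, and for 9 to 10 days in EGF and bFGF at 10 ng/mL each. The organoids received neither TNF nor RBM25 knockdown, and the sources used here do not say whether they received a control virus. The labels do not tie the 3 organoid replicates to separate cultures, so their spread may be technical and the p-values measure only the spread between these samples.

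In the cochlea, hair cells turn sound into receptor current through channels at the tips of their stereocilia, and pass it on at ribbon synapses to spiral ganglion neurons, whose axons Schwann cells myelinate. Supporting cells hold the hair cells and secrete the tectorial membrane, the stria vascularis and the fibrocytes of the spiral ligament recycle potassium into the endolymph, and vessels, macrophages, bone and the marrow around the tissue complete the organ. Organoids of this kind are grown from Lgr5-positive supporting cells, the progenitors of the newborn cochlea, with a Wnt activator for growth and a Notch inhibitor for the turn to hair cells.

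Levels are given in CPM, the counts of a gene per 1000000 counts of the 17257 shared genes in the same library, as mean ± SD with n = 4 ear and n = 3 organoid libraries. The libraries held 32350821 to 34763361 reads over these genes in the ear and 33864075 to 34422824 in the organoids. Values by library are listed in the order of the replicate numbers. A gene was called when edgeR's quasi-likelihood test gave an adjusted p under 0.05 over all 14876 genes tested and the fitted fold was at least 4 in either direction. A gene was counted as present in a group at 1 CPM or more in every library of it, and as absent below 1 CPM in all. Tissue, age, culture, experiment and table changed together between the groups and cannot be told apart. Sex may have differed too, since the ear mice were male and the sex of the pups is not given. In bulk samples fewer cells of a type and less RNA per cell cannot be told apart either. Only large differences are therefore read, with the fold of 4 as the limit. The authors' gene models also differed between the tables: lengths implied by counts and FPKM agreed within 1% for 75.6% of the genes, and 1779 genes, 10.3%, had a model more than 10% longer in the organoid table, which can add reads there.

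Of the 14876 genes tested, 754 were called higher in the organoids, 5.07%, and 3102 were called lower, 20.9%. At any size of difference 12037 genes, 80.9%, had an adjusted p under 0.05, so a p-value alone separated little here. Of the 17257 genes, 11664 were present in both groups, 1480 in the ear and absent in the organoids, and 120 in the organoids and absent in the ear. The ear libraries had 13729 to 13869 genes at 1 CPM or more and the organoid libraries 12174 to 12202. In 5483 of the 17257 genes every organoid library lay above every ear library, and in 7021 every one lay below. Of the called genes 99.3% had no overlap between the groups. A lack of overlap therefore also separated little here.

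Gene lists for 30 cell types and processes were set against this background of 5.07% higher and 20.9% lower. Genes of simple epithelium and of the tectorial membrane and otolith matrix were higher, with 13 of 16 and 7 of 13 members called. The hair cell lists were divided. Most bundle and transduction genes were present in both groups, as were most shared genes. Many synaptic and outer hair cell genes were called lower. Nearly all genes of neurons, endothelium, muscle and macrophages were called lower: 21 of 22, 15 of 15, 12 of 12 and 13 of 14. By the median log2 ratio of mean CPM with 0.1 added, organoid over ear, the lists ran from -9.05 for neurons to 3.45 for simple epithelium, against -0.15 over all shared genes. That added 0.1 makes the ratios of genes near 0 smaller than they are.

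**Figure D1:**
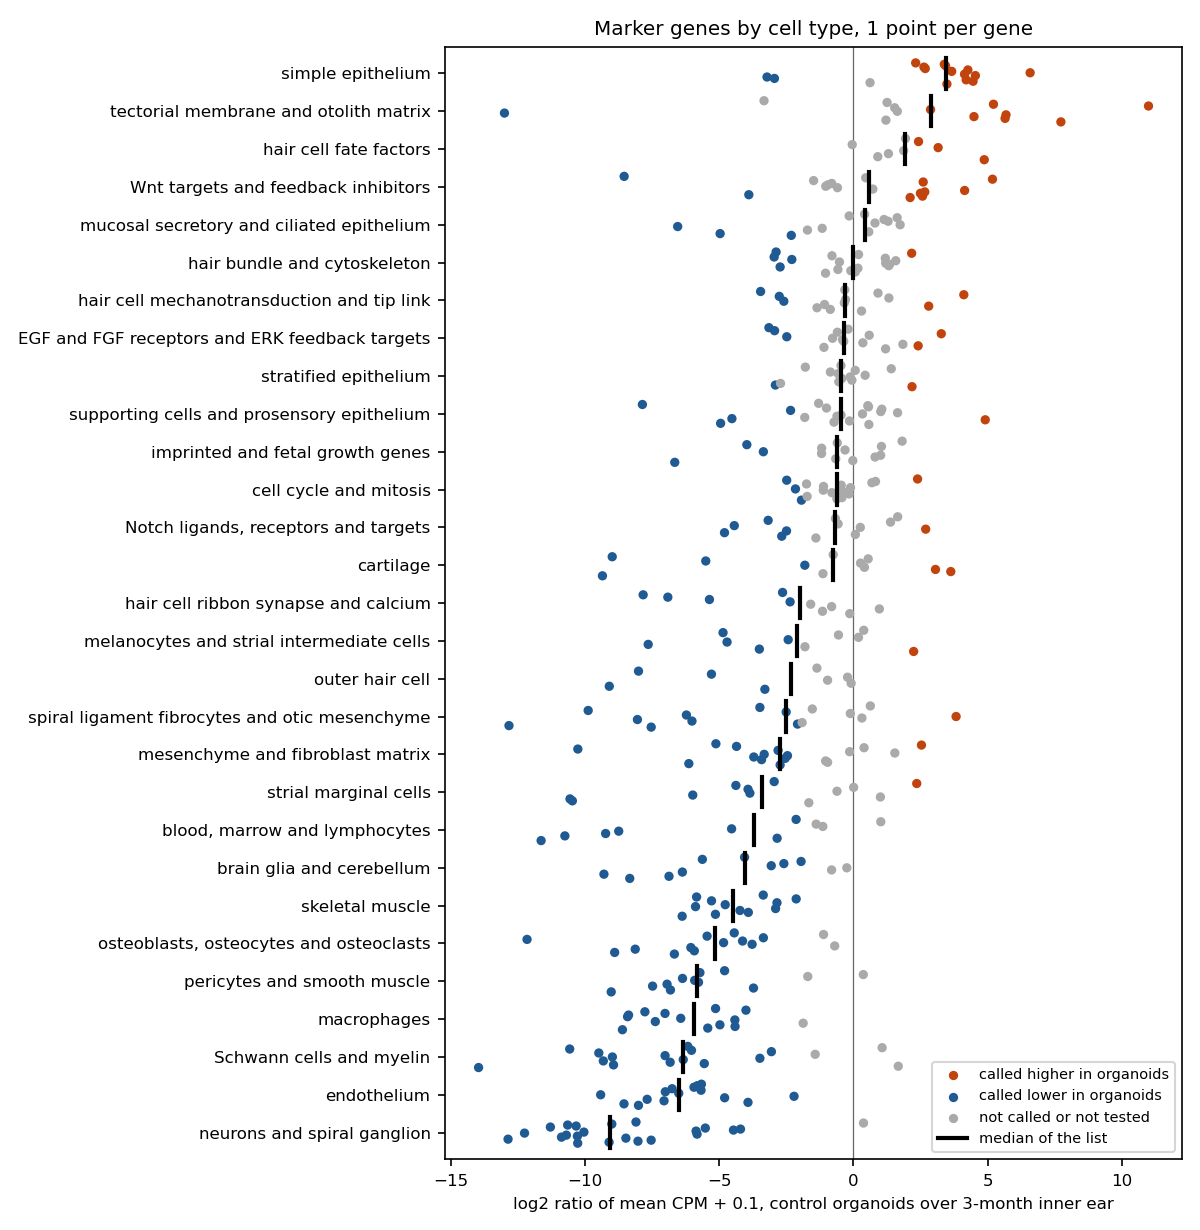
Each point is 1 gene of a marker list, placed by the log2 ratio of mean CPM + 0.1 in control organoids (n = 3) over 3-month inner ear (n = 4), with called genes coloured and the list median as a bar, for 29 lists. The medians of the neuron, endothelium, Schwann cell, macrophage and pericyte lists lie between -9.05 and -5.84, and those of the simple epithelium and tectorial membrane lists at 3.45 and 2.87.

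Among the hair cell lists, the transcription factors of hair cell fate had the highest median ratio of organoid to ear, although single genes of other lists rose more than some of them. Of 8 genes in this list 3 were called higher and none lower, with 7 of the 8 tested and a median log2 ratio of 1.90. Atoh1, the factor that starts hair cell differentiation in the embryo and newborn, had 0.0577, 0, 0 and 0.0288 CPM in the ear and 3.37, 3.52 and 3.48 CPM in the organoids. Its reads were 354 over the organoids against 3 over the ear, a ratio of 156 with an exact 95% counting interval of 52.9 to 759. No library of one group reached the other, and 2 of the 4 ear libraries held no read. Lhx3, a LIM factor of hair cells, had 1.53, 1.21, 0.448 and 0.604 CPM in the ear and 9.62, 8.12 and 9.89 CPM in the organoids. For Lhx3 the log2 fold change was 3.28 (SE 0.36, edgeR adjusted p = 9.69e-06). Ikzf2, which encodes helios, a regulator of outer hair cell maturation, averaged 9.43 ± 2.10 CPM in the ear and 51.0 ± 1.69 CPM in the organoids. For Ikzf2 the log2 fold change was 2.43 (SE 0.16, edgeR adjusted p = 1.48e-07), although its exons overlap an antisense gene that unstranded reads cannot separate. Both genes were clear of overlap between the groups. Pou4f3, the factor that hair cells need to survive, had 4.68, 2.10, 4.36 and 4.26 CPM in the ear and 7.29, 6.83 and 7.77 CPM in the organoids, a 1.90-fold ratio of means below the limit of 4. Gfi1, which represses neuronal genes in hair cells, was also below it at 4.95 ± 2.04 CPM in the ear and 12.3 ± 0.712 CPM in the organoids. Rfx3 at 13.1 ± 0.936 CPM in the ear and 50.4 ± 2.78 CPM in the organoids passed the limit only with TMM factors (log2 fold change 2.02) and with DESeq2 (log2 fold change 2.00).

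Genes of the mechanotransduction complex and the hair bundle were for the most part present in both groups, as were 11664 of the 17257 shared genes. In the transduction list 13 of 14 genes were present in both, 2 were called higher and 3 lower, with a median log2 ratio of -0.33. Over all genes tested 5.07% were called higher and 20.9% lower, so the share called lower here was near the background. Tmc1, a pore-forming subunit of the mature transduction channel, had 13.5, 5.75, 8.51 and 12.6 CPM in the ear and 12.6, 11.8 and 13.0 CPM in the organoids, and the groups overlapped. Tmc2, the subunit of immature hair cells, had 3 reads over all organoids and 31 over the ear. Cdh23, which forms the upper part of the tip link that opens the channel, averaged 21.7 ± 3.76 CPM in the ear and 11.9 ± 0.944 CPM in the organoids. Its partner Pcdh15, the lower part, went the other way, with 14.1, 5.44, 7.85 and 10.1 CPM in the ear and 65.9, 67.3 and 64.5 CPM in the organoids. For Pcdh15 the log2 fold change was 2.81 (SE 0.26, edgeR adjusted p = 1.44e-05). The ratio of Pcdh15 was 7.03-fold, while that of Cdh23 stayed under the limit. Ush1c, which encodes harmonin, the scaffold that anchors the tip link, had 47.6, 30.9, 27.4 and 40.5 CPM in the ear and 634, 627 and 638 CPM in the organoids. For Ush1c the log2 fold change was 4.11 (SE 0.18, edgeR adjusted p = 2.26e-08), a 17.3-fold ratio. Every organoid library lay above every ear library, and an opposite-strand gene overlaps its exons. Called lower were 3 partners of the same complexes: Cib2, a calcium-binding subunit of the channel, at 80.3 ± 6.77 CPM in the ear and 13.2 ± 0.584 CPM in the organoids, Clrn1, which encodes clarin-1, at 19.7 ± 3.33 CPM in the ear and 2.81 ± 0.265 CPM in the organoids, and Whrn, which encodes the scaffold whirlin, at 22.6 ± 3.83 CPM in the ear and 1.97 ± 0.553 CPM in the organoids. These 3 genes stayed present in every organoid library.

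Among 18 genes of the hair bundle and its cytoskeleton, 13 were present in both groups, 1 was called higher and 4 lower, and the median log2 ratio was -0.02. Both shares were near the 5.07% higher and 20.9% lower over all genes tested. Myo7a, an actin motor used as a general hair cell marker, had 50.9, 45.8, 37.0 and 51.1 CPM in the ear and 23.4, 22.0 and 21.8 CPM in the organoids. The organoids held 2.06-fold less of it by means, with no overlap but under the limit. Myo6, another motor of hair cells that other epithelia express too, had 223, 241, 229.7 and 230.4 CPM in the ear and 215, 215 and 216 CPM in the organoids (edgeR adjusted p = 0.0971). Espn, which encodes the actin bundler espin, had 17.9, 14.7, 11.4 and 17.8 CPM in the ear and 16.2, 15.9 and 16.4 CPM in the organoids (edgeR adjusted p = 0.687). Its organoid values lay within the range of the ear, and the sign of its small difference turned when ear replicate 3 was left out. Pls1, which encodes the bundler plastin 1 of hair cells and gut epithelium, was the member called higher, at 20.5 ± 5.39 CPM in the ear and 92.5 ± 2.73 CPM in the organoids. With glmTreat, which tests whether the fold itself exceeds 4, Pls1 lost its call (adjusted p = 0.263). Strc, which encodes stereocilin, a protein of the outer hair cell bundle, was called lower, with 24.4, 8.47, 14.2 and 21.3 CPM in the ear and 3.11, 1.99 and 2.36 CPM in the organoids. For Strc the log2 fold change was -2.78 (SE 0.37, edgeR adjusted p = 8.72e-05). The others called lower were Grxcr2 at 7.92 ± 2.28 CPM in the ear and 1.53 ± 0.178 CPM in the organoids (not with glmTreat, adjusted p = 0.109), Fscn2, which encodes the cross-linker of mature bundles, at 6.77 ± 1.90 CPM in the ear and 0.831 ± 0.205 CPM in the organoids, and Lmod3.

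Synaptic and calcium-buffer genes separated more widely. Of 10 genes in this list, all present in both groups, 5 were called lower and none higher, with a median log2 ratio of -1.98. The shares over all genes tested were 20.9% lower and 5.07% higher. Otof, which encodes otoferlin, the calcium sensor of release at the ribbon synapse, had 104, 66.3, 57.1 and 118 CPM in the ear and 84.7, 72.7 and 78.0 CPM in the organoids (edgeR adjusted p = 0.634), and the groups overlapped. The sign of this difference turned without ear replicate 4. Slc17a8, which encodes the glutamate transporter VGLUT3 of inner hair cells, averaged 20.6 ± 6.17 CPM in the ear and 9.21 ± 0.998 CPM in the organoids, and the channel gene Cacna1d 84.5 ± 9.91 CPM in the ear and 48.1 ± 3.81 CPM in the organoids. Neither reached the limit. Calb2, which encodes calretinin, had 2675, 2209.5, 2099 and 2435 CPM in the ear and 9.47, 10.6 and 10.6 CPM in the organoids. For Calb2 the log2 fold change was -7.85 (SE 0.13, edgeR adjusted p = 1.56e-11). Pvalb, which encodes parvalbumin, had 515, 484, 429 and 537 CPM in the ear and 4.04, 4.13 and 3.75 CPM in the organoids. For Pvalb the log2 fold change was -6.95 (SE 0.11, edgeR adjusted p = 1.41e-11). Both are also abundant in spiral ganglion neurons, as are Bsn and Pclo, which encode the active zone proteins bassoon and piccolo and averaged 73.7 ± 10.6 CPM in the ear and 1.69 ± 0.0820 CPM in the organoids and 73.4 ± 11.5 CPM in the ear and 14.2 ± 1.74 CPM in the organoids. The neuron list moved with these genes, and its part in the result was not tested.

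The 8 genes of outer hair cells split into 4 called lower, against 20.9% of all genes tested, and 4 not called, with a median log2 ratio of -2.33. Ocm, which encodes oncomodulin, the calcium buffer of outer hair cells, had 65.6, 28.1, 47.3 and 77.4 CPM in the ear and no read in any organoid library. With 3 reads over the group as the floor, it was at least 1882-fold lower in the organoids (edgeR adjusted p = 0.000208), although its model is 22.3% longer in the organoid table. Slc26a5, which encodes prestin, the motor of outer hair cell electromotility, had 24.2, 7.79, 15.6 and 27.1 CPM in the ear and 1.54, 2.20 and 1.68 CPM in the organoids. For Slc26a5 the log2 fold change was -3.37 (SE 0.45, edgeR adjusted p = 0.000138). Every organoid library was above 1 CPM and below every ear library. Kcnn2, the SK2 potassium channel of the efferent synapse, averaged 36.4 ± 3.61 CPM in the ear and 0.833 ± 0.526 CPM in the organoids, and lay under 1 CPM in 1 of the 3 organoid libraries. In contrast, its partner at that synapse Chrna10, a subunit of the nicotinic receptor, had 15.7, 6.71, 7.64 and 13.0 CPM in the ear and 9.94, 7.77 and 9.92 CPM in the organoids (edgeR adjusted p = 0.476). Chrna10 overlapped between the groups, and the sign of its difference turned without ear replicate 1. Dnm3, a dynamin that neurons express as well, averaged 206 ± 27.7 CPM in the ear and 0.702 ± 0.158 CPM in the organoids, with a model 179% longer in the organoid table.

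**Figure D2:**
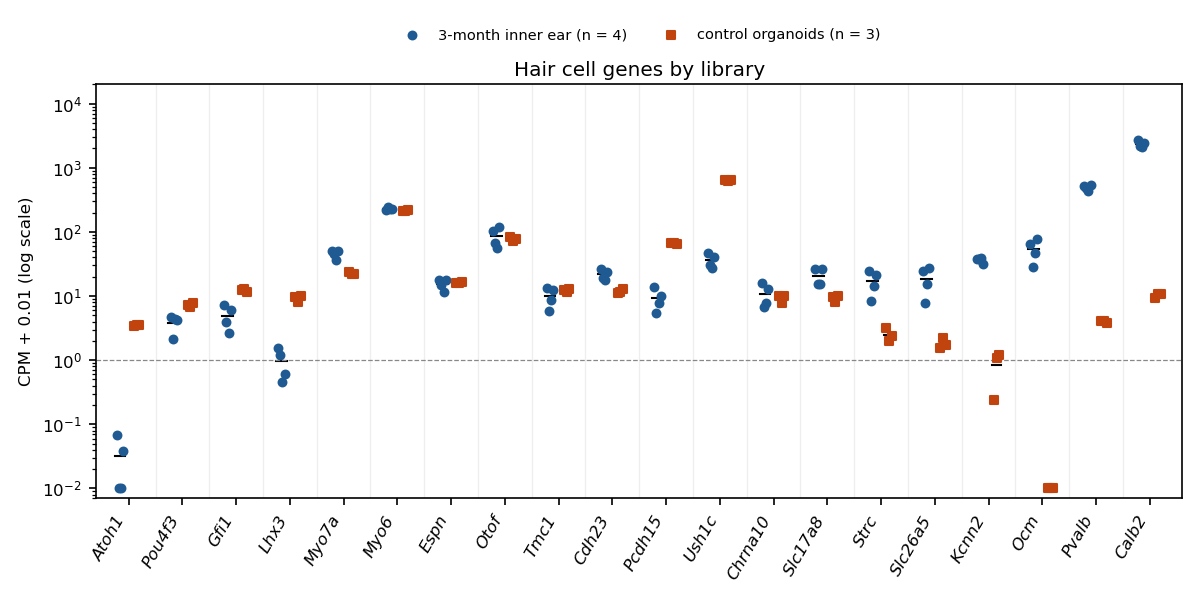
CPM + 0.01 on a log axis for 20 hair cell genes in each of 4 ear libraries (circles) and 3 organoid libraries (squares), with bars at the means and a dashed line at 1 CPM. Atoh1, Pcdh15 and Ush1c are higher in every organoid library, Myo6, Espn, Otof, Tmc1 and Chrna10 are close in both groups, and Slc26a5, Ocm, Pvalb and Calb2 are lower in every organoid library.

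Supporting cells and the prosensory epithelium were represented by 19 genes, of which 17 were present in both groups, 1 was called higher and 4 lower, with a median log2 ratio of -0.46. Sox2, the factor of the prosensory domain and of supporting cells, had 36.2, 27.9, 27.7 and 33.6 CPM in the ear and 46.0, 47.9 and 46.3 CPM in the organoids, with no overlap but a ratio of 1.49-fold. Lgr5, the R-spondin receptor that marks the progenitor supporting cells, had 37.2, 37.0, 42.9 and 42.5 CPM in the ear and 38.2, 33.6 and 36.2 CPM in the organoids (edgeR adjusted p = 0.115), and the groups overlapped. Lgr6, a related receptor of a narrower set of supporting cells, had 4.53, 5.66, 4.15 and 5.01 CPM in the ear and 153, 144 and 147 CPM in the organoids. For Lgr6 the log2 fold change was 4.94 (SE 0.09, edgeR adjusted p = 2.35e-11). Its organoid level was 30.6 times that of the ear. S100a1 and Fbxo2, 2 abundant genes of supporting cells, averaged 488 ± 68.9 CPM in the ear and 1013 ± 23.6 CPM in the organoids and 980.2 ± 159.8 CPM in the ear and 1443 ± 18.9 CPM in the organoids. The otic regulators Eya1 and Gata3 averaged 369 ± 12.5 CPM and 112 ± 4.75 CPM in the organoids against 118 ± 9.38 CPM and 88.7 ± 13.1 CPM in the ear, both under the limit.

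The 4 members called lower, of 18 tested, were a share near the 20.9% over all genes. Prox1, a factor of pillar and Deiters cells that spiral ganglion neurons also use, had 116, 87.7, 79.2 and 95.2 CPM in the ear and 3.66, 2.32 and 2.92 CPM in the organoids. For Prox1 the log2 fold change was -4.99 (SE 0.19, edgeR adjusted p = 3.51e-09), with an antisense gene over its exons. Fgfr3, the receptor that marks pillar and Deiters cells and their progenitors, had 50.2, 34.3, 39.5 and 50.7 CPM in the ear and 1.60, 2.23 and 1.57 CPM in the organoids. For Fgfr3 the log2 fold change was -4.60 (SE 0.20, edgeR adjusted p = 6.9e-09). Ngfr, the neurotrophin receptor p75 of inner pillar cells and of glia, had 165, 147, 191 and 153 CPM in the ear and 0.872, 0.410 and 0.532 CPM in the organoids. For Ngfr the log2 fold change was -8.07 (SE 0.19, edgeR adjusted p = 8.56e-11), and it was the 1 member present in the ear and absent in the organoids. Pax2 averaged 11.6 ± 2.26 CPM in the ear and 2.21 ± 0.566 CPM in the organoids, and lost its call with glmTreat (adjusted p = 0.0719). For all of these the organoid libraries lay wholly below the ear, as they did for 7021 of the 17257 shared genes. Ngfr and Prox1 are shared with the glia and neurons, whose lists were also lower, and the part of those cells in these results was not tested.

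The matrix that supporting cells and their neighbours secrete held several of the largest increases among the genes named here. Of 13 genes of the tectorial membrane and the otolith matrix, 12 were tested, 7 were called higher and 1 lower, with a median log2 ratio of 2.87. Otoa (chr7:121083424-121163093 in build mm10), which encodes otoancorin, the attachment of the membrane to the spiral limbus, had 139, 77.2, 98.5 and 112 CPM in the ear and 5494, 5446 and 5494 CPM in the organoids. For Otoa the log2 fold change was 5.68 (SE 0.19, edgeR adjusted p = 1.37e-09). Otog (chr7:46240987-46311434), which encodes the membrane glycoprotein otogelin, had 158, 88.4, 66.8 and 108 CPM in the ear and 5347, 5141 and 5344 CPM in the organoids. For Otog the log2 fold change was 5.65 (SE 0.29, edgeR adjusted p = 2.63e-07). The ratios of means were 51.3 and 50.1, and per gene length both stood at percentiles of 99.9 and 99.7 of the shared genes in the organoid libraries, against 71.9 to 84.4 and 54.7 to 74.7 in the ear. Tecta, which encodes alpha-tectorin, had 5.95, 5.97, 1.55 and 5.06 CPM in the ear and 1008, 972 and 1024 CPM in the organoids. For Tecta the log2 fold change was 7.75 (SE 0.38, edgeR adjusted p = 7.87e-07), a 216-fold ratio, with an opposite-strand gene over its exons. Its partner Tectb had 11.5, 1.76, 5.02 and 11.6 CPM in the ear and 18.8, 16.1 and 17.3 CPM in the organoids and did not pass (edgeR adjusted p = 0.0842). Otogl, which encodes the otogelin-like protein, averaged 32.7 ± 9.54 CPM in the ear and 737 ± 24.3 CPM in the organoids and Col11a1, a fibrillar collagen of the membrane, 69.9 ± 10.7 CPM in the ear and 512 ± 13.0 CPM in the organoids, and both were called higher. Col11a2 and the proteoglycan gene Epyc averaged 919 ± 147 CPM in the ear and 2659.9 ± 106 CPM in the organoids and 307 ± 84.5 CPM in the ear and 951 ± 17.6 CPM in the organoids, under the limit.

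Otol1 (chr3:70007613-70028708), which encodes the otolith collagen otolin-1 of the vestibular organs, had the largest fitted increase of all genes named by the rule. It had 2.92, 1.45, 0.149 and 1.15 CPM in the ear and 3099.8, 3129.6 and 3014 CPM in the organoids. For Otol1 the log2 fold change was 11.08 (SE 0.53, edgeR adjusted p = 8.68e-07), and the organoid mean was 2174 times the ear mean. Oc90, which encodes the otoconial protein otoconin-90, had 398 reads over the organoids and 1 over the ear, a ratio of 526 with an exact 95% counting interval of 93.8 to 20813, with a model 79.6% longer in the organoid table. Nox3, the oxidase needed for otoconia, had no read in the organoids and 0.577, 2.78, 0.269 and 0 CPM in the ear, and was not tested. The opposite of Otoa and Otog was seen for Ceacam16, which encodes an adhesion protein of the mature tectorial membrane. It had 1096, 495, 754 and 932 CPM in the ear and no read in the organoids, at least 28168-fold lower (edgeR adjusted p = 2.07e-05), with an opposite-strand gene over its exons.

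Genes of simple epithelium were higher nearly throughout. Of 16 genes, all tested, 13 were called higher and 2 lower, with 15 present in both groups. Epcam, the adhesion molecule of epithelia, had 82.4, 76.0, 82.4 and 97.0 CPM in the ear and 925, 960.3 and 943 CPM in the organoids. For Epcam the log2 fold change was 3.48 (SE 0.08, edgeR adjusted p = 1.03e-10). Krt8 and Krt18, a keratin pair of simple epithelia, averaged 19.6 ± 4.81 CPM in the ear and 430.5 ± 6.92 CPM in the organoids and 27.4 ± 4.99 CPM in the ear and 504 ± 5.84 CPM in the organoids. Among the tight junction claudins, Cldn9 had 73.1, 59.2, 73.7 and 75.9 CPM in the ear and 1339.6, 1348 and 1373 CPM in the organoids (log2 fold change 4.26, SE 0.09, edgeR adjusted p = 5.04e-11) and Cldn6, a claudin of embryonic epithelia, 1.07, 2.32, 1.76 and 2.42 CPM in the ear and 189, 189 and 193 CPM in the organoids. For Cldn6 the log2 fold change was 6.65 (SE 0.17, edgeR adjusted p = 2.49e-10). No ear library reached the lowest organoid library for any of these genes, as was so for 5483 of the 17257 shared genes. Cdh1, which encodes E-cadherin, averaged 272 ± 37.0 CPM in the ear and 418 ± 3.70 CPM in the organoids, below the limit. Krt19 and Krt7 were the 2 called lower, at 8.41 ± 2.94 CPM in the ear and 1.00 ± 0.198 CPM in the organoids and 24.5 ± 5.37 CPM in the ear and 2.54 ± 0.469 CPM in the organoids. Of 14 genes of stratified epithelium, markers of another kind of epithelium, 10 were present in neither group and 4 were tested. Krt5 was called higher there at 0.0901 ± 0.108 CPM in the ear and 0.761 ± 0.0713 CPM in the organoids and its partner keratin Krt14 lower at 0.725 ± 0.396 CPM in the ear and 0.00977 ± 0.0169 CPM in the organoids. Krt5 was under 1 CPM in every library and lost its call with glmTreat (adjusted p = 0.158). Of 13 genes of mucosal and ciliated epithelium 9 were tested, and 3 were called lower and none higher. The shares over all genes tested were 20.9% and 5.07%. In this list 5 genes were present in neither group, and the median log2 ratio was 0.41. The secreted airway protein gene Bpifb1 had no organoid read.

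**Figure D3:**
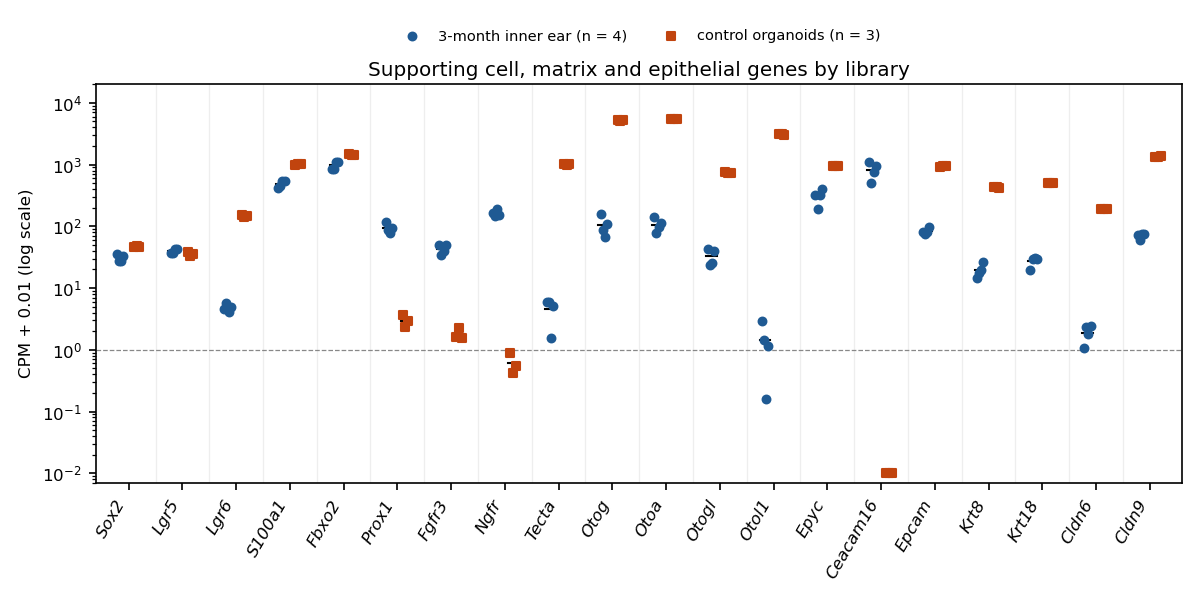
CPM + 0.01 on a log axis for 20 genes of supporting cells, matrix and epithelium in each of 4 ear libraries (circles) and 3 organoid libraries (squares), with bars at the means. Otog, Otoa, Otol1 and Tecta reach 972 to 5494 CPM in the organoids and at most 158 CPM in the ear, while Prox1, Fgfr3, Ngfr and Ceacam16 are lower in every organoid library.

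The list for strial marginal cells, which secrete potassium into the endolymph, held 12 genes, with 7 called lower, 1 higher and a median log2 ratio of -3.41. The shares over all genes tested were 20.9% lower and 5.07% higher. Not every member of this list is a gene of marginal cells, Slc26a4 among them. Kcne1, the beta subunit of the potassium channel of these cells, had 117, 167, 154 and 129.8 CPM in the ear and no read in the organoids, at least 4824-fold lower (edgeR adjusted p = 1.04e-08). Esrrb, a nuclear receptor of marginal cells, had 129, 182, 152 and 141 CPM in the ear and likewise no organoid read, at least 5129-fold lower (edgeR adjusted p = 4.1e-09). Kcnq1, the pore subunit that pairs with Kcne1, remained at 68.6 ± 10.4 CPM in the ear and 21.6 ± 0.997 CPM in the organoids, under the limit and overlapped by the antisense Kcnq1ot1. Slc12a2, the sodium-potassium-chloride cotransporter, had 1024, 1226, 1176 and 1082 CPM in the ear and 74.5, 73.4 and 74.0 CPM in the organoids. For Slc12a2 the log2 fold change was -3.93 (SE 0.09, edgeR adjusted p = 5.12e-11), and Atp1b2, a sodium pump subunit, averaged 799 ± 103 CPM in the ear and 38.3 ± 1.77 CPM in the organoids. Slc26a4, which encodes the anion exchanger pendrin of root and spindle cells, was the member called higher, with 83.6, 110.2, 185 and 151 CPM in the ear and 670.2, 676 and 693 CPM in the organoids. For Slc26a4 the log2 fold change was 2.36 (SE 0.25, edgeR adjusted p = 5.05e-05), and the call was lost with glmTreat (adjusted p = 0.126).

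Melanocytes form the intermediate cells of the stria and depend on the factor MITF, which binds the M-box of pigment gene promoters. Of the 10 compared genes of this list, 5 were called lower and 1 higher, against 20.9% and 5.07% of all genes tested. Mitf had 51.0, 64.3, 55.1 and 49.1 CPM in the ear and 1.98, 2.20 and 1.83 CPM in the organoids. For Mitf the log2 fold change was -4.77 (SE 0.13, edgeR adjusted p = 2.51e-10). Mlana, a melanosome protein, had 16, 31.3, 23.6 and 16.6 CPM in the ear and 0, 0.0293 and 0 CPM in the organoids, 1 read against 2936 and a ratio of 2223 with an exact 95% counting interval of 399 to 87838 in favour of the ear. The pigment enzyme gene Tyrp1 had 1.01, 0.247, 1.88 and 1.01 CPM in the ear and no organoid read, at least 35.6-fold lower (edgeR adjusted p = 0.000613). Kcnj13, an inward rectifier channel, averaged 42.8 ± 8.62 CPM in the ear and 1.38 ± 0.102 CPM in the organoids. For Kcnj13 the log2 fold change was -4.95 (SE 0.19, edgeR adjusted p = 2.89e-09). Kcnj10, the channel of intermediate cells that supporting cells and glia express too, was the member called higher at 62.9 ± 3.72 CPM in the ear and 297 ± 9.25 CPM in the organoids, with a model 104% longer in the organoid table. Dct, Tyr and Slc45a2, other pigment genes, had rows in the ear table alone, at 856 ± 268, 49.1 ± 17.0 and 61.8 ± 21.6 CPM, and were not compared.

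The promoters of the 2 melanocyte genes that were lower and held the M-box core are printed to show the site that they share. Both strands of each RefSeq promoter (250 bases before to 50 after the start of transcription, build GRCm38.p6) were searched for the core TCATGTG, which 3.77% of 32851 promoters hold. Of 13 promoters from 10 list genes 4 held it, those of Kcnj13, Tyrp1, Tyr and Dct. Capitals mark the match, which starts 47 bases before the start site in Tyrp1 (chr4:80833963-80834262, plus strand) and 112 bases before it, on the opposite strand, in Kcnj13 (chr1:87394680-87394979, minus strand).
Tyrp1: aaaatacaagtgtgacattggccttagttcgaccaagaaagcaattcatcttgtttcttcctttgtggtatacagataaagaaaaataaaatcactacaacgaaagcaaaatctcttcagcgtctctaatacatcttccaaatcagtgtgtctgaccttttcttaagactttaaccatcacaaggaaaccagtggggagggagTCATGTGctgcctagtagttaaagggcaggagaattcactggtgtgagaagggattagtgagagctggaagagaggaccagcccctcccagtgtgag
Kcnj13: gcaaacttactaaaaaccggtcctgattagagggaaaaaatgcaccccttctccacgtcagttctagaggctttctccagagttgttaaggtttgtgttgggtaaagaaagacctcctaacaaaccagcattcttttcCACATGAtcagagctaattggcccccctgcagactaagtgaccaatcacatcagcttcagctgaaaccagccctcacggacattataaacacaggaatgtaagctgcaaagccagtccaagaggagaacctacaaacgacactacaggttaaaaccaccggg
A match is a description of these letters and not a measured binding site.

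Fibrocytes of the spiral ligament and the otic mesenchyme were lower for 9 of 15 genes and higher for 1, against 20.9% and 5.07% of all genes tested. Coch, which encodes cochlin, the most abundant matrix protein of the ligament, had 5637, 7415, 6619 and 6027 CPM in the ear and 34.6, 36.1 and 32.9 CPM in the organoids. For Coch the log2 fold change was -7.54 (SE 0.14, edgeR adjusted p = 2.13e-11). Otos, which encodes otospiralin of fibrocytes, had 1213, 1879, 1639 and 1316 CPM in the ear and 0.0872, 0.205 and 0.0295 CPM in the organoids. For Otos the log2 fold change was -13.73 (SE 0.33, edgeR adjusted p = 2.5e-10), a ratio of means of 14091. Apod averaged 6302 ± 1394 CPM in the ear and 23.7 ± 1.09 CPM in the organoids and the ion transporter gene Slc4a11 646 ± 379.6 CPM in the ear and 0.584 ± 0.306 CPM in the organoids. The connexins of the gap junction network that supporting cells share with fibrocytes differed from each other. Gjb2, which encodes connexin 26, had 497, 672, 772 and 647 CPM in the ear and 594, 591 and 604 CPM in the organoids (edgeR adjusted p = 0.393) with overlap, whereas Gjb6, which encodes connexin 30, had 425, 618, 664 and 539 CPM in the ear and 100.3, 96.4 and 99.0 CPM in the organoids. For Gjb6 the log2 fold change was -2.51 (SE 0.14, edgeR adjusted p = 7.98e-08). Lum, which encodes the matrix proteoglycan lumican, was the member called higher, with 49.0, 50.1, 75.6 and 93.8 CPM in the ear and 956, 959 and 935 CPM in the organoids. For Lum the log2 fold change was 3.82 (SE 0.23, edgeR adjusted p = 8.86e-07), and the related Dcn averaged 384 ± 83.0 CPM in the ear and 477 ± 15.6 CPM in the organoids (edgeR adjusted p = 0.0757).

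General mesenchyme was lower for 11 of 17 genes. Thy1, which fibroblasts and neurons express, had 533, 487, 487 and 525 CPM in the ear and 0.232, 0.557 and 0.148 CPM in the organoids. For Thy1 the log2 fold change was -10.65 (SE 0.20, edgeR adjusted p = 2.37e-11). Col1a2, a chain of collagen I, averaged 441 ± 82.7 CPM in the ear and 6.19 ± 0.447 CPM in the organoids and Fn1, which encodes fibronectin, 221 ± 32.5 CPM in the ear and 16.7 ± 1.34 CPM in the organoids. Tnc, which encodes the matrix glycoprotein tenascin C, was called higher at 7.33 ± 4.11 CPM in the ear and 42.9 ± 0.890 CPM in the organoids, but not with glmTreat (adjusted p = 0.17). Of 11 cartilage genes 9 were tested, 2 were called higher, 4 lower and 3 neither. The shares over all genes tested were 5.07% higher and 20.9% lower. The aggrecan gene Acan and the link protein gene Hapln1 had no organoid read. The collagen IX genes Col9a1 and Col9a2, which the tectorial membrane also uses, were called higher at 28.7 ± 4.92 CPM in the ear and 355 ± 6.88 CPM in the organoids and 152 ± 26.4 CPM in the ear and 1259 ± 42.9 CPM in the organoids. The third, Col9a3, averaged 116 ± 16.3 CPM in the ear and 154 ± 1.98 CPM in the organoids and the collagen II gene Col2a1 116 ± 23.5 CPM in the ear and 52.5 ± 3.20 CPM in the organoids, and neither reached the limit.

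Neurons were lower for 21 of 22 genes, against 20.9% of all genes tested, and the median log2 ratio was -9.05. Snap25, a protein of transmitter release, had 2586, 2024, 2051 and 2242 CPM in the ear and 1.60, 1.73 and 1.77 CPM in the organoids. For Snap25 the log2 fold change was -10.35 (SE 0.15, edgeR adjusted p = 1.03e-11). Nefh, the heavy neurofilament of large axons, had 3019.9, 2575, 2228 and 2743 CPM in the ear and 0.290, 0.205 and 0.266 CPM in the organoids. For Nefh the log2 fold change was -13.32 (SE 0.20, edgeR adjusted p = 1.03e-11). Slc17a7, which encodes the transporter VGLUT1 of spiral ganglion neurons, had 4 reads over the organoids and averaged 679 ± 73.3 CPM in the ear, and the sodium channel gene Scn1a had none, at least 5478-fold lower. Of the 22 genes, 16 were present in the ear and absent in the organoids and 5 were present in both. The neurofilament genes Nefm and Nefl, both called lower, still stood at 12.3 ± 0.738 CPM and 6.26 ± 0.158 CPM in the organoids. These 2 genes overlap each other in the annotation. Ntrk2, which encodes the BDNF receptor TrkB, was the 1 gene not called, with 282, 222, 309 and 241 CPM in the ear and 340.1, 336 and 349 CPM in the organoids. The 12 lowest genes named by the rule also included neuronal genes outside the list. Scrt1, Iqsec3, Gabbr2 and Cntnap5a, with 395 ± 41.5 CPM, 453 ± 66.8 CPM, 172 ± 21.6 CPM and 218 ± 39.4 CPM in the ear, had no organoid read.

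Schwann cells and myelin were lower for 14 of 17 genes, with a median log2 ratio of -6.34. Mbp, a myelin gene that other cells also transcribe, had 3133, 2343, 2805 and 1959.6 CPM in the ear and 55.4, 54.6 and 52.8 CPM in the organoids, with a model 87.5% longer in the organoid table. The 3 genes not called were Sox10, Erbb3 and Mal. Sox10, a neural crest factor that the otic epithelium also expresses, had 216, 226, 233 and 223 CPM in the ear and 709.5, 718 and 711 CPM in the organoids. Every organoid library was above the ear, and the ratio of 3.18 was under the limit. Of 11 genes of brain tissue, which can come with the nerve, 9 were lower. Gfap, of astrocytes and some glia, had 235, 94.1, 187 and 67.8 CPM in the ear and 0.232, 0.205 and 0.620 CPM in the organoids, and Mog, of central myelin, 23.9, 3.74, 14.2 and 4.52 CPM in the ear and no organoid read. The ear libraries varied widely in these genes, with replicate 1 the highest for both.

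Macrophage genes were lower for 13 of 14 members, and all 13 were absent below 1 CPM. Csf1r, the receptor that macrophages need to survive, had 35.3, 34.8, 46.9 and 38.5 CPM in the ear and no organoid read, at least 1328-fold lower (edgeR adjusted p = 4.07e-09). Lyz2, a lysozyme, averaged 74.0 ± 18.0 CPM in the ear and 0.117 ± 0.0870 CPM in the organoids, and the complement gene C1qb 26.4 ± 2.49 CPM in the ear and 0.0588 ± 0.0513 CPM in the organoids. Cd68, the 1 gene not called, had 3.81, 6.58, 5.05 and 4.98 CPM in the ear and 1.05, 1.58 and 1.33 CPM in the organoids and crossed the limit without ear replicate 1 or organoid replicate 2 (log2 fold changes -2.07 and -2.10) and with whole-table library sizes (log2 fold change -2.004). Of 10 genes of blood, marrow and lymphocytes 9 were tested, 7 were called lower and 2 neither. The globin genes Hbb-bs and Hba-a1 averaged 318 ± 237 CPM and 172 ± 124 CPM in the ear, highest in replicate 2, with no organoid read. Globin paralogs are near-identical, so their reads cannot be assigned with certainty. The 2 genes not called were the T cell receptor component gene Cd3e, at 0.392 ± 0.228 CPM in the ear and 0.897 ± 0.309 CPM in the organoids (edgeR adjusted p = 0.0522), and the neutrophil granule gene Camp, at 1.78 ± 1.98 CPM in the ear and 0.752 ± 0.0956 CPM in the organoids (edgeR adjusted p = 0.142).

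Vessels were lower for all 15 endothelial genes and for 10 of 12 pericyte and smooth muscle genes. Pecam1, an adhesion molecule of endothelium, had 42.2, 70.6, 38.2 and 72.5 CPM in the ear and 0.0290, 0.205 and 0.118 CPM in the organoids. For Pecam1 the log2 fold change was -8.85 (SE 0.50, edgeR adjusted p = 4.93e-07). Cldn5, the claudin of tight vessels, had no organoid read and was at least 2313-fold lower. Rgs5, a pericyte gene, averaged 240.0 ± 87.3 CPM in the ear and 0.361 ± 0.0441 CPM in the organoids. Emcn, which encodes the vascular sialomucin endomucin, stayed above 10 CPM in every organoid library, with 64.2, 88.8, 55.6 and 69.4 CPM in the ear and 14.3, 14.4 and 16 CPM in the organoids. For Emcn the log2 fold change was -2.22 (SE 0.15, edgeR adjusted p = 3.24e-07), and the call was lost with glmTreat (adjusted p = 0.103). Notch3 and Anpep, the pericyte genes not called, averaged 30.3 ± 7.30 CPM in the ear and 9.23 ± 0.610 CPM in the organoids and 28.5 ± 6.96 CPM in the ear and 36.8 ± 2.40 CPM in the organoids.

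Bone genes were lower for 12 of 14 members. Spp1, which encodes osteopontin, a matrix protein that inner ear cells other than bone also make, had 3722, 4278, 4012 and 3936 CPM in the ear and 0.755, 0.586 and 0.974 CPM in the organoids. For Spp1 the log2 fold change was -12.33 (SE 0.16, edgeR adjusted p = 1.03e-11). Dmp1, of osteocytes, had 46.5, 36.9, 36.2 and 70.5 CPM in the ear and no organoid read. All 12 skeletal muscle genes were called lower, and 6 of them were present in the ear. Acta1, the muscle actin, had 4.27, 40.2, 4.93 and 16.1 CPM in the ear and 0.0872, 0.147 and 0.0591 CPM in the organoids (log2 fold change -7.34, SE 1.38, edgeR adjusted p = 0.00233), and the highest ear library was replicate 2. Actn3, the actinin of fast muscle fibres, averaged 2.36 ± 2.03 CPM in the ear and 0.459 ± 0.105 CPM in the organoids with overlap, and lost its call with glmTreat (adjusted p = 0.56), without ear replicate 2 (log2 fold change -1.83) and without organoid replicate 1 or 3 (adjusted p = 0.0677 and 0.0563).

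**Figure D4:**
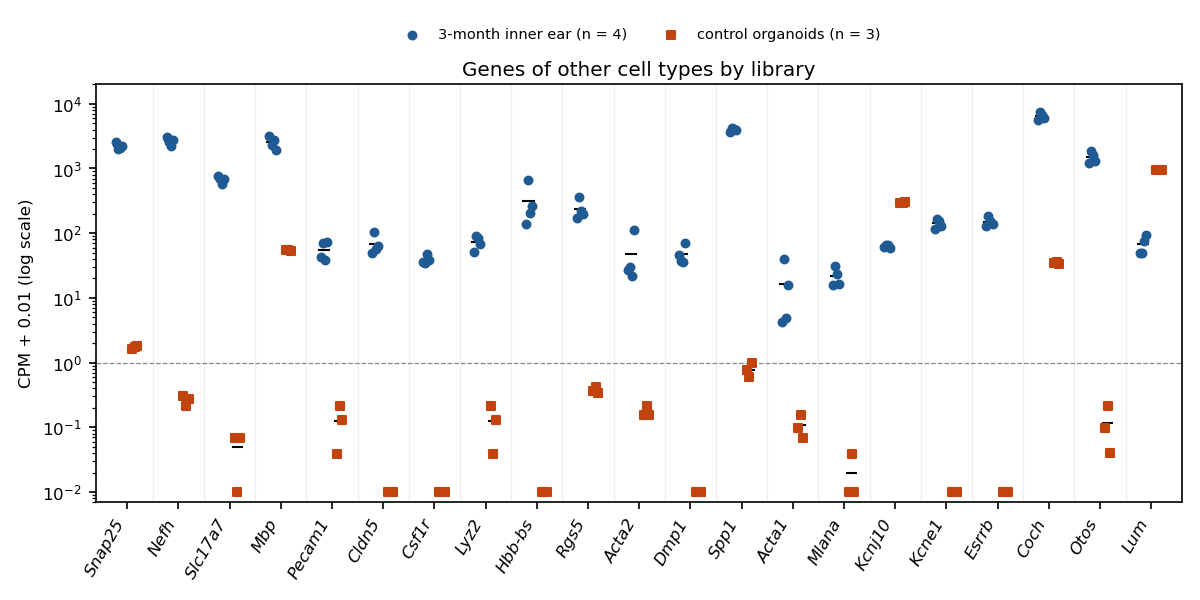
CPM + 0.01 on a log axis for 21 genes of neurons, glia, vessels, blood, bone, muscle, stria and ligament in each of 4 ear libraries (circles) and 3 organoid libraries (squares); squares at 0.01 stand for libraries without a read. Squares lie below circles for all but Kcnj10 and Lum, 2 genes that were called higher in the organoids.

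Genes of the pathways that the culture media act on did not move as one. Of 16 Wnt genes 7 were called higher and 2 lower, against 5.07% and 20.9% of all genes tested, with a median log2 ratio of 0.59. Axin2, a feedback inhibitor that most Wnt-responsive cells induce, had 38.4, 49.6, 36.0 and 43.7 CPM in the ear and 184, 179 and 180.4 CPM in the organoids. For Axin2 the log2 fold change was 2.11 (SE 0.10, edgeR adjusted p = 1.06e-08), and the call was lost with glmTreat (adjusted p = 0.195). Nkd1 and Rnf43, other feedback inhibitors, averaged 23.1 ± 4.32 CPM in the ear and 138 ± 4.33 CPM in the organoids and 20.6 ± 2.50 CPM in the ear and 117 ± 6.61 CPM in the organoids, and the secreted inhibitor Sfrp1 had 39.9, 33.4, 43.1 and 44.3 CPM in the ear and 1449.7, 1426 and 1495 CPM in the organoids. For Sfrp1 the log2 fold change was 5.18 (SE 0.10, edgeR adjusted p = 3.15e-11). Sp5, a transcription factor and direct Wnt target, had 0.693, 1.33, 0.299 and 0.805 CPM in the ear and 15.8, 15.0 and 15.6 CPM in the organoids. For Sp5 the log2 fold change was 4.30 (SE 0.33, edgeR adjusted p = 6.84e-07). The organoid libraries stood above the ear for all of these, as they did for 5483 of the 17257 shared genes. Notum, a secreted enzyme that inactivates Wnt and a feedback target too, went the other way at 17.4 ± 1.49 CPM in the ear and 1.07 ± 0.139 CPM in the organoids, and so did the ligand Rspo3, with 2 organoid reads against 5990 in the ear, a ratio of 2268 with an exact 95% counting interval of 628 to 18730.0. A promoter of Sp5 (chr2:70474673-70474972, plus strand, RefSeq, GRCm38.p6) was the 1 of 14 promoters from 9 list genes that held the TCF/LEF core ATCAAAG on either strand, which 3.73% of all promoters hold. It is shown with the match in capitals, 104 bases before the start site and on the opposite strand.
Sp5: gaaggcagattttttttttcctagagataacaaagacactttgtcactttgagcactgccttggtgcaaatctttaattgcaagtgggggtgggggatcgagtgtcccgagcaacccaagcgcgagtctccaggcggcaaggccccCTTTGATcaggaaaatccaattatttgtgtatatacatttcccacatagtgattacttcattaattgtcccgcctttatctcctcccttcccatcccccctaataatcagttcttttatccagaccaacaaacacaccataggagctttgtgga
The factor's binding was not measured.

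Of 13 Notch genes, all tested, 5 were called lower and 1 higher, against 20.9% and 5.07% of all genes tested. The share called higher was near the background. Notch1, the receptor, was higher, with 72.4, 89.9, 83.5 and 80.5 CPM in the ear and 543, 503 and 534 CPM in the organoids. For Notch1 the log2 fold change was 2.69 (SE 0.08, edgeR adjusted p = 3.08e-10), and antisense genes overlap its exons. The target Hes5 had 0.924, 0.433, 0.478 and 0.316 CPM in the ear and no organoid read, at least 18.4-fold lower. Heyl, another target that pericytes also express, averaged 47.8 ± 4.49 CPM in the ear and 1.61 ± 0.365 CPM in the organoids. Hes1 averaged 13.7 ± 1.62 CPM in the ear and 5.12 ± 0.155 CPM in the organoids and Hey1 22.9 ± 0.863 CPM in the ear and 24.0 ± 0.838 CPM in the organoids (edgeR adjusted p = 0.403 for Hey1), under the limit. The lower Notch4 and Dll4 are endothelial genes, and the endothelial list moved with them, whose part in the result was not tested. Of the 15 compared genes of EGF and FGF signalling 13 were tested, and 2 were called higher and 3 lower. Over all genes tested 5.07% were called higher and 20.9% lower, so the share called lower was near the background. Egfr had 20.9, 15.2, 20.8 and 23.2 CPM in the ear and 196, 194 and 192 CPM in the organoids. For Egfr the log2 fold change was 3.28 (SE 0.12, edgeR adjusted p = 1.59e-09), with a model 49.5% longer in the organoid table, and the feedback inhibitor Spry1 averaged 8.68 ± 2.13 CPM in the ear and 46.5 ± 0.760 CPM in the organoids. Fgfr1 averaged 319 ± 30.9 CPM in the ear and 210.1 ± 3.92 CPM in the organoids, whereas Fgfr2 was called lower at 103 ± 7.29 CPM in the ear and 13.4 ± 0.457 CPM in the organoids.

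Division genes were low in both groups. Of 18 cell cycle genes 15 were tested, 3 were called lower and 1 higher, and 7 were present in both groups. These calls were near the 20.9% lower and 5.07% higher over all genes tested. Mki67, the proliferation marker, had 0.664, 1.67, 1.97 and 4.31 CPM in the ear and 0.407, 0.733 and 0.325 CPM in the organoids with overlap and lost its call with glmTreat (adjusted p = 0.738) and without ear replicate 4 (log2 fold change -1.55) or organoid replicate 3 (log2 fold change -1.91). Cdc20, the mitotic activator, was called higher at 3.61 ± 1.34 CPM in the ear and 19.3 ± 1.49 CPM in the organoids, though not with glmTreat (adjusted p = 0.0884), and another gene overlaps its exons. Of 13 growth genes of fetal tissue 10 were tested, and 3 were called lower and none higher. With 5.07% called higher over all genes tested, none of 10 is no departure from the background. Igf2 had 83.8, 98.7, 126 and 122 CPM in the ear and 0.784, 1.23 and 0.886 CPM in the organoids. For Igf2 the log2 fold change was -6.79 (SE 0.22, edgeR adjusted p = 1.68e-09). The immediate early genes Fos and Fosb were among the 12 largest increases, Fos with 3.93, 3.83, 11.7 and 18.9 CPM in the ear and 527, 551 and 527 CPM in the organoids. For Fos the log2 fold change was 5.80 (SE 0.61, edgeR adjusted p = 0.000171), and the ear libraries differed in them, replicates 3 and 4 being the highest. Also among these 12 were Mia, a secreted cartilage and pigment cell protein, at 10.3 ± 2.36 CPM in the ear and 1451 ± 12.6 CPM in the organoids, the homeobox genes Barx2 and Dmbx1 at 0.551 ± 0.203 CPM in the ear and 41.7 ± 1.13 CPM in the organoids and 0.134 ± 0.138 CPM in the ear and 25.7 ± 1.83 CPM in the organoids, the adrenergic receptor gene Adra1a at 0.352 ± 0.202 CPM in the ear and 50.6 ± 2.40 CPM in the organoids and the fibroblast growth factor homologue Fgf14 at 1.53 ± 0.584 CPM in the ear and 107 ± 6.38 CPM in the organoids. The rule that named these genes asked for no overlap between the groups, so their lack of overlap is no separate result.

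Y-linked genes were present in both groups, Ddx3y at 69.7 ± 5.29 CPM in the ear and 55.7 ± 7.98 CPM in the organoids and Kdm5d at 27.5 ± 1.27 CPM in the ear and 38.7 ± 3.15 CPM in the organoids. Xist, the RNA of the inactive X chromosome, has a row in the organoid table alone and stood at 770.3 ± 28.5 CPM there. The organoids thus held both Xist and Y-linked RNA, whereas the ear mice were male, so sex may not have been matched between the groups. Genes listed in 1 table only were left out of every count above. The ear table alone lists 132 genes at a mean of 1 CPM or more, and some of them are used by most cells, such as Lrch4 at 106 ± 3.90 CPM, so a missing row is no measurement of 0.

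The 2 groups kept their order among the other ages and treatments of the series for some lists, given here as scores without a test (a score is the mean of log2(CPM + 1) over the members of a list in 1 library). The neuron score was 7.51 to 8.01 in the 3-month ear and 1.10 to 1.11 in control organoids. It was 7.08 to 8.04 over ear libraries of all ages and 1.10 to 1.54 over organoids of all treatments. The macrophage score was 3.40 to 5.24 and 0.12 to 0.59, and the endothelial score 4.78 to 5.87 and 0.64 to 1.23. The tectorial membrane score was 4.56 to 5.49 over all ear libraries and 7.12 to 7.99 over all organoid libraries, and the simple epithelium score 3.69 to 5.46 and 6.78 to 7.51. None of these 5 lists overlapped between tissue and culture. The hair bundle score did overlap in control organoids, at 3.95 to 3.96 within the 3.76 to 4.29 of the 3-month ear, and was 4.61 to 5.06 in organoids with RBM25 knockdown.

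**Figure D5:**
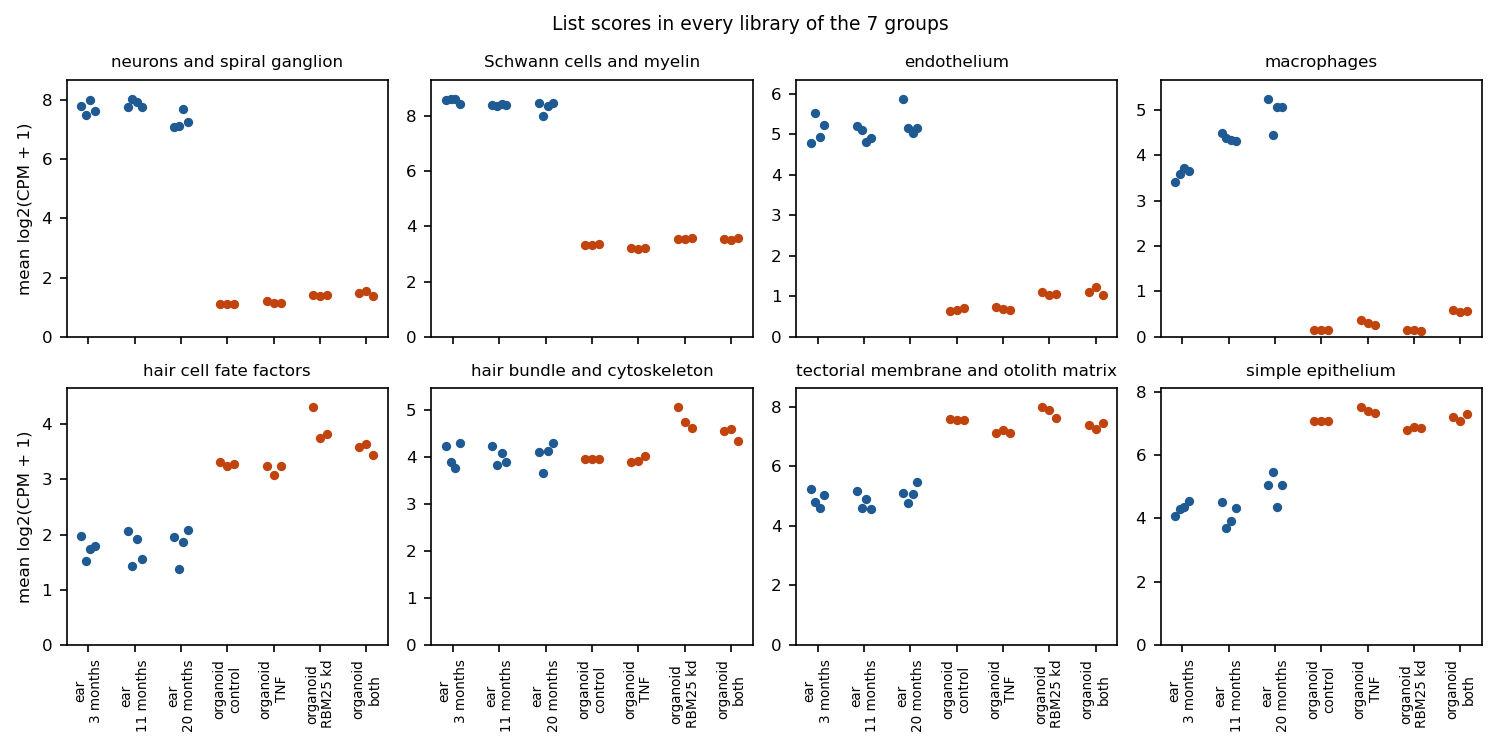
Scores of 8 lists, the mean log2(CPM + 1) of the members, in each of the 24 libraries, by age of the inner ear (blue) and treatment of the organoids (orange, kd for knockdown and both for knockdown with TNF). The neuron, Schwann cell, endothelium and macrophage scores of every organoid library lie below every ear library, and those of the tectorial membrane and simple epithelium lie above.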

How the data were processed

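RNA was measured by unstranded bulk RNA sequencing (TruSeq kit, Illumina HiSeq, per the labels' protocols) in 4 libraries of 3-month inner ear and 3 of control organoids. The deposited count tables hold the authors' whole-number reads per gene, as counts without normalization. The deposited FPKM tables hold the authors' values scaled to gene length and library depth, and FPKM served only for ranks within a library and implied gene lengths. Alignment to mm10, trimming and counting are recorded only as tool names in the submitters' processing notes (HISAT2, Trimmomatic and HTSeq, beside DESeq2), without versions. Of 17257 shared genes, 14876 passed filterByExpr and were fitted with edgeR 4.0.16 (R 4.3.3; glmQLFit with robust dispersion, two-sided glmQLFTest, Benjamini-Hochberg adjustment over all of them). Library size was the sum over the shared genes, without TMM factors, because a scaling to most genes assumes that most do not differ. CPM was computed from the same sums. Counts of replicates differed beyond sampling noise, the chi-square divided by its degrees of freedom being 21.3 to 52.9 between ear libraries and 4.74 to 8.72 between organoid libraries, and the biological coefficient of variation was 14.1%. Intervals and bounds of folds account for counting error alone.

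The genes, the comparison and the gene lists were chosen with earlier results of these data known. Of 431 list genes, 404 had rows in both tables, 23 in the ear table alone, 3 in the organoid table alone and 1 in neither. Named genes were the 12 highest and 12 lowest fitted fold changes among called genes with at least 10 CPM in the higher group, no overlap and no predicted name, and in each list the first 2 genes and the 2 members with the highest mean CPM in each group, printed as far as room allowed; a few genes that it names are not reported here. Other list members named in the text were chosen after their values were seen. CPM of genes listed in 1 table alone is relative to that whole table. The fit was tested on simulated data for this comparison with 14876 genes: it called 98% of genes changed 6-fold and 100% of those changed 8-fold and 16-fold, none changed 2-fold and 1 unchanged gene. Changes were planted only in genes above a count floor, so recovery of genes with few reads was not tested. The fold limit of 4 itself keeps out a 2-fold change. Alternatives were TMM factors, DESeq2 size factors, whole-table library sizes, no count filter, the DESeq2 1.42.0 test, all 24 libraries in 1 fit, glmTreat against a fold of 4, a replicate block, each library left out in turn, presence at 0.5 CPM, ratios of FPKM and, added after the data were seen, only genes whose models differ by at most 10% in length. Coordinates are RefSeq's for GRCm38.p6, which is mm10, and exon overlaps are from GENCODE vM21. Figures were drawn with matplotlib 3.10.9.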

Additional observations from a re-analysis of the deposited data

Results flagged for a closer look

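Of 235 values examined over the 4 ear libraries, 11 had 1 library standing far from the other 3, by a gap to its nearest neighbour that exceeds the critical share of the whole range in Dixon's test. Chance sets apart about 1 in 20 such groups, and 11 of 235 is close to that. Ear replicate 3 was lowest for Tecta, at 1.55 CPM. Ear replicate 2 was lowest for Pou4f3, at 2.10 CPM, and for Cldn9, at 59.2 CPM, and it was highest for Col11a2, at 1137 CPM. Ear replicate 4 was lowest for Rdx, at 172 CPM, and highest in the score of mesenchyme and fibroblast matrix, at 5.48. Replicate 4 was also lowest for Kcnn2, at 31.0 CPM. Ear replicate 1 was lowest for Pax2, at 8.23 CPM, and for Krt18, at 19.9 CPM. Ear replicate 2 was highest for Col9a3, at 140 CPM, and replicate 3 for Oc90, at 0.0299 CPM, which is 1 read. No organoid group was examined in this way, because 3 libraries are too few. The call of Tecta and Cldn9 as higher in the organoids was the same with each of the 7 libraries left out in turn.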

How the results depend on the processing

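The numbers of genes called higher (754) and lower (3102) ranged over the alternatives, all libraries left out in turn included, from 537 to 829 and from 2705 to 3469, within 1.5 times. Of these calls, 84.1% to 99.9% remained under each alternative. The counts of list members that moved by more than 1.5 times follow. Hair cell fate factors called higher were 5 with TMM factors and with DESeq2. Tectorial and otolith matrix genes called lower were 2 without a count filter, with DESeq2 and with all 24 libraries in 1 fit. Stratified epithelium genes called lower were 2 with whole-table library sizes, 4 without a filter and 3 with DESeq2 and with all libraries, and those called higher were 2 without a filter and with DESeq2. With glmTreat, genes called higher were 0 for the hair bundle, stratified epithelium, strial marginal cells, mesenchyme and the cell cycle, and 1 cell cycle gene was called lower. With genes of similar model length alone, 1 outer hair cell gene and 1 fetal growth gene were lower, 0 melanocyte genes and 1 EGF and FGF gene higher; fewer genes were tested there. At 0.5 CPM the lacking genes were 1 each for the hair bundle, outer hair cells, fibrocytes and the cell cycle and 0 for supporting cells, Notch, EGF and FGF, and fetal growth. At that threshold the genes present in both were 5 for mucosal epithelium, 8 for neurons, 4 for endothelium, 4 for bone and 11 for the cell cycle, and those in the organoids alone were 0 for the hair bundle and 1 for stratified epithelium. With 1 library left out, stratified epithelium ranged from 0 to 3 lower and 1 to 2 higher, hair bundle from 1 to 2 higher, mucosal epithelium from 0 to 1 higher and the cell cycle from 1 to 3 lower. Replicate numbers did not pair the samples (correlations of their deviations from -0.0226 to 0.0215 between the groups). A fit with the replicate number as a block called 782 higher and 2966 lower, with 2 hair bundle and 2 mucosal genes higher, 0 stratified epithelium genes and 1 cell cycle gene lower. Among the genes named, signs turned only for 3 that were not called: Espn at -0.053 without ear replicate 3, ranging to 0.147 with 1 library left out, Otof at 0.092 with the block and from -0.295 to 0.048 with 1 library left out, and Chrna10 from -0.394 to 0.014 with 1 library left out. With the block, Mki67 (-1.49) and Actn3 (-1.54) lost their calls. The cause of these changes was not tested. Depth limits genes below 1 CPM.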

Other observations

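Beyond a few values given as examples, genes that neither the lists nor the largest changes name were not read further. A few list members and other genes with a row in the organoid table or the ear table alone give values with no counterpart. In the ear, the complement gene C1qa stood at 27.0 ± 4.02 CPM and the microglia and macrophage receptor gene Cx3cr1 at 14.3 ± 1.95 CPM (SD, n = 4). The airway secretory gene Bpifa1 ranged over the ear libraries from 26.9 to 407 CPM. In the organoids, the long noncoding RNA Malat1 stood at 1592 ± 146 CPM and the mitochondrial gene COX1 at 11819 ± 480.5 CPM (SD, n = 3).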
